A study of Mus musculus with 53 samples.

Results

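The tumours described here were grown from TA3 Hauschka cells, a mouse mammary tumour line that comes from a tumour of a strain A mouse, and they differ in the mouse that carried them. Of the 53 libraries and 18 groups of the series, 6 libraries were taken by their titles: 3 from tumours in A/J mice and 3 from tumours in NSG mice, all of the WGD- form of the line, which has not gone through whole genome doubling, and all given vehicle for 14 days in an experiment on YM-155. Cells of either group had been placed with Matrigel in the inguinal mammary fat pad of female mice aged 6 weeks. A/J is an inbred strain with a working immune system. The NSG mice have a NOD background with the alleles Prkdcscid and Il2rgtm1Wjl, which leave no mature T, B or NK cells, and they carry the transgene of the strain ending 1Eav/MloySzJ, in which the CMV promoter drives human IL3, CSF2 and KITLG. Macrophages and neutrophils remain in such mice. The hosts thus differ in strain, in those mutations and in the transgenes, and what each contributes cannot be told apart in this design. RNA of the whole tumour was sequenced, so a library holds transcripts of tumour cells and of host cells. In such samples, fewer cells of a type and less RNA per cell cannot be told apart either. The comparison asks what tumours of the same cells express in a host with lymphocytes and in one without.

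Interferon-gamma is made by T and NK cells. It acts on most other cells through its receptor and the kinases Jak1 and Jak2, and the signal ends at DNA sites called GAS. Among the genes induced is Irf1, a transcription factor that binds other sites called ISRE, and the response raises the guanylate-binding proteins (GBP), the immunity-related GTPases (IRG), the peptide-presenting MHC molecules and chemokines that draw more T cells. Type I interferons act through Stat2 and Irf9 on ISRE sites, so the genes of both responses overlap.

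The A/J libraries held 5.91, 3.23 and 7.12 M assigned reads and the NSG libraries 6.51, 7.11 and 6.80 M. Levels are log2(CPM + 1), where CPM is the reads of a gene scaled to a common library size (counts per M reads), and a difference is A/J minus NSG on that scale, which understates the change of low genes. A difference was called at an adjusted p under 0.05 in limma, adjusted over the 13826 genes above 1 CPM in at least 3 of the 24 libraries of the experiment. Whether the libraries of a group stem from different mice is not stated in the labels; the p-values rest on the spread among the libraries alone, which may be technical. A/J library 1 and A/J library 2, which was the shallowest, stood apart: their best correlation with any other library lay 5.6 and 17 median absolute deviations under the median of the experiment. The median SD of a gene was 0.329 over the A/J libraries and 0.161 over the NSG libraries, and it was larger over A/J for 77.7% of the genes. Lengths of transcripts also moved with the host: short transcripts were on balance higher and long ones lower in A/J tumours, and values with that trend removed are given where they matter.

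Of the 13826 genes tested, 4768 were called between hosts, 34.5% of them: 2244 (16.2%) were higher and 2524 (18.3%) lower in A/J tumours. The libraries of the hosts did not overlap for 43.6% of the genes, and 8.93% were called under each of 18 alternative settings. The higher side reached further. Among called genes, 874 were higher and 680 lower by more than 1, and 68 were higher and 0 lower by more than 3. Of those 68 genes, 42 belong to the lists of interferon and MHC genes, and 12 belong to no list used here. Over these lists 114 different genes were tested, 91 were higher (79.8%), and 1, the receptor gene Ifngr1, was lower, with a median difference of 2.49 beside -0.03 over all genes. Without A/J libraries 1 and 2 together, 2310 genes were called, and 2976 with only the 6 libraries in the fit.

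**Figure D1:**
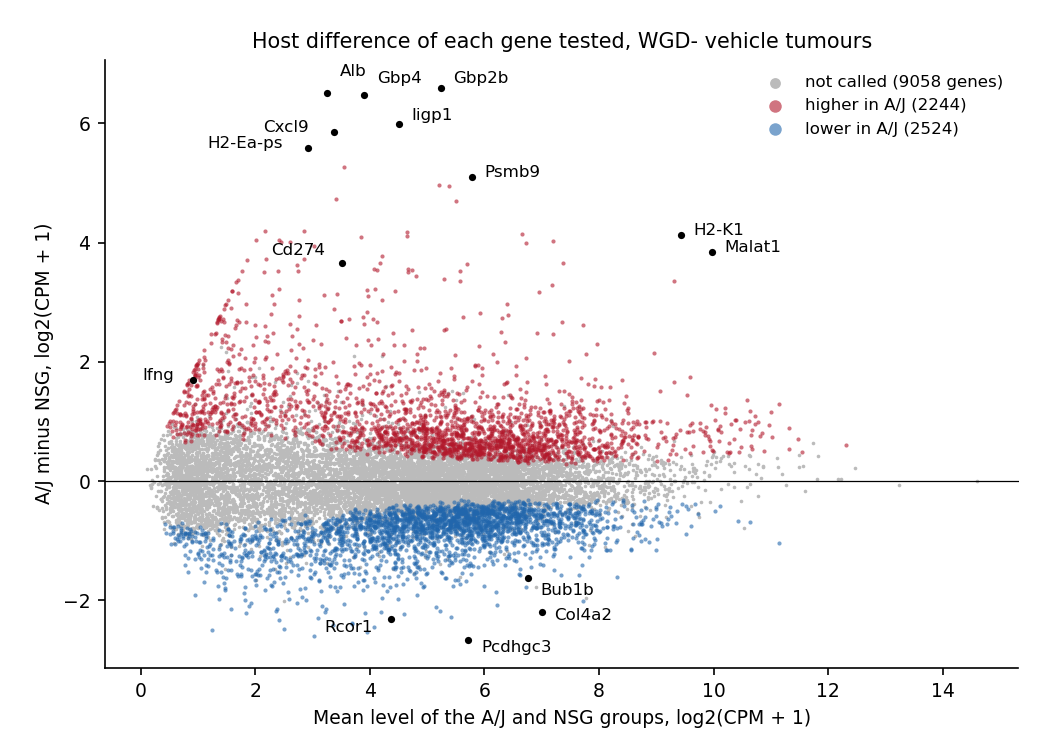
Difference of each tested gene (A/J minus NSG, log2(CPM + 1)) against its mean level in both groups, with called genes in red (2244 higher in A/J) and blue (2524 lower) and uncalled genes in grey. The higher side reaches 6.60 with Gbp2b, and no called gene is lower by more than 3.

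The gene of interferon-gamma was near its limit of detection. Ifng was at 1.82, 1.95 and 1.49 in A/J tumours, against 0.00, 0.18 and 0.00 in NSG tumours, which is 35 reads in the A/J libraries together and 1 in the NSG libraries. The 2 groups did not overlap, and the difference of 1.69 was called (SE 0.35, adjusted p = 0.0013). As a ratio of pooled reads it was 48.2-fold, with an exact 95% counting interval of 8.1 to 1957. Intervals of this kind cover counting error only.

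Downstream of the receptor, 11 of the 17 tested genes of interferon-gamma signalling were higher and 1 was lower, with a list median of 1.41. Nlrc5, the transactivator of MHC class I genes, was at 6.28, 4.84 and 6.19 in A/J tumours, against 0.53, 1.31 and 1.28 in NSG tumours, a difference of 4.73 (SE 0.96, adjusted p = 0.00157). Irf1 was at 8.27, 7.36 and 8.01 in A/J tumours, against 4.88, 5.15 and 4.67 in NSG tumours (2.98, SE 0.53, adjusted p = 0.000683). In both genes the lowest A/J library lay above the highest NSG library. Ciita, the transactivator of MHC class II genes, differed by 2.41 (adjusted p = 0.0077). Ifngr1, the ligand-binding receptor chain, was lower at 3.90, 4.30 and 4.02 in A/J tumours, against 4.54, 4.55 and 4.74 in NSG tumours (-0.54, adjusted p = 0.0179) and was not called without A/J library 1, or NSG library 3. Ifngr2, Jak1, Jak2, Stat3 and Socs3 were not called, with differences between -0.19 and 0.43.

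All 11 GBP genes were higher in A/J tumours, with a median of 4.04. Their products are large GTPases that gather on the membranes of pathogens and help to break them open. Gbp2b (chromosome 3, 142594847 to 142619179, plus strand in mm10) had the largest difference of any gene named: it was at 9.21, 8.32 and 8.07 in A/J tumours, against 1.56, 2.29 and 1.95 in NSG tumours (6.60, SE 1.00, adjusted p = 0.000255). Gbp4 (chromosome 5, 105115767 to 105139586, minus strand) was at 7.61, 7.29 and 6.51 in A/J tumours, against 0.80, 0.18 and 1.00 in NSG tumours (6.47, SE 1.01, adjusted p = 0.000305). The A/J libraries of both genes lay far above every NSG library, and lack of overlap was a condition for naming genes by largest difference. Gbp2 and Gbp7 differed by 4.95 and 4.70. The genes lie in 2 clusters, Gbp2, Gbp2b, Gbp3, Gbp5 and Gbp7 on chromosome 3 and the other 6 on chromosome 5, and members of a cluster are alike enough in sequence for reads to be shared, so their separate values are uncertain.

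The IRG genes encode smaller GTPases that attack vacuoles holding parasites and bacteria. Of the 10 members, 9 were tested and all 9 were higher, with a median of 4.01; Tgtp1, near-identical to Tgtp2, did not pass the filter. Iigp1 was at 7.83, 7.69 and 6.97 in A/J tumours, against 1.48, 1.39 and 1.66 in NSG tumours (5.99, SE 1.18, adjusted p = 0.00127). Ifi47 was at 6.76, 6.18 and 5.61 in A/J tumours, against 0.68, 1.72 and 0.36 in NSG tumours (5.26, SE 0.99, adjusted p = 0.00095). Igtp (chromosome 11, 58199556 to 58207591, plus strand) was at 8.26, 7.24 and 7.55 in A/J tumours, against 2.41, 2.85 and 2.90 in NSG tumours (4.96, SE 0.99, adjusted p = 0.00136). None of the 3 genes had overlapping groups, which was a condition for naming genes by largest difference. Over all genes tested, 43.6% did not overlap. Igtp and Irgm2 overlap in the annotation, and the strand setting of the authors' counting is not given in the sources used here. The SE values use the spread over all 8 groups of the experiment, not that of these 6 libraries alone.

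The start sites of these genes are shown because they moved together and because GAS and ISRE sites have known letters. RefSeq windows (GRCm38.p6, 250 bases before to 50 after the start site) were searched on both strands for TTCNNNGAA, a GAS site, and for a pair of GAAA with 2 bases between them, the core of an ISRE. The matches are in capitals. No GAS match overlaps an ISRE match in the sequences shown, while the pair of ISRE matches of Gbp3 overlap each other. A match is a description of the letters, not of binding.
Gbp2b (chr3:142594597-142594896, plus strand): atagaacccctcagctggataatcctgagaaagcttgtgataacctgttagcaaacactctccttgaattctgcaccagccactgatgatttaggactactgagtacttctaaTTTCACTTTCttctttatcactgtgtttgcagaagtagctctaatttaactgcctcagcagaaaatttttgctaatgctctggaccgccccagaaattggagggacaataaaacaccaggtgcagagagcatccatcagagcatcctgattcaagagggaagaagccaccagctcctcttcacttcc
Gbp2 (chr3:142620413-142620712, plus strand): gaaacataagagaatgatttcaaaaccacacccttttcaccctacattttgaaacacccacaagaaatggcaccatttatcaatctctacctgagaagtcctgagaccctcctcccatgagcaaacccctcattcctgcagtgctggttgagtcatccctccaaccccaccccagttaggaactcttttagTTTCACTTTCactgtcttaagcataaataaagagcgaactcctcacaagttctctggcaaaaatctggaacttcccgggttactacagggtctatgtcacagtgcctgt
Igtp (chr11:58199306-58199605, plus strand): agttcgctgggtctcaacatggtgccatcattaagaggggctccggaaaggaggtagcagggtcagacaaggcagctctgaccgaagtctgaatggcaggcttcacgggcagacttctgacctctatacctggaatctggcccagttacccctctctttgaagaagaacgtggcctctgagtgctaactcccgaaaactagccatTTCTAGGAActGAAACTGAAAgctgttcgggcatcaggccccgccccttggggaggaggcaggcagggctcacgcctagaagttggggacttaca
Irf1 (chr11:53769764-53770063, plus strand): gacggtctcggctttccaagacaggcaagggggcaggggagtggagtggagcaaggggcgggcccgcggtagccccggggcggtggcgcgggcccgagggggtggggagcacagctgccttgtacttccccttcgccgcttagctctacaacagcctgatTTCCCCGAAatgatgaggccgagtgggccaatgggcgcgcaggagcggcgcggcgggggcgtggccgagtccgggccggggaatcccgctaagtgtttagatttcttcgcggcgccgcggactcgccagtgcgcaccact
Stretches of 40 bases are shown for 5 more genes whose differences lay between 3.50 and 4.70; they leave out 2 GAS matches of Gbp7, 106 and 87 bases before the start, and an ISRE match of Gm12250, 91 bases before it.
Gbp3 (chr3:142559989-142560028, plus strand): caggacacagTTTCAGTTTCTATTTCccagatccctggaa
Gbp7 (chr3:142530267-142530306, plus strand): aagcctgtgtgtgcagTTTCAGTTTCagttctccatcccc
Irgm2 (chr11:58214897-58214936, plus strand): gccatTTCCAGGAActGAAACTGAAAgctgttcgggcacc
Tgtp2 (chr11:49064259-49064298, minus strand): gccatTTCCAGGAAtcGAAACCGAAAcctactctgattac
Gm12250 (chr11:58183781-58183820, plus strand): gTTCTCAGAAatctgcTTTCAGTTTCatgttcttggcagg
In Igtp, Irgm2 and Tgtp2 the GAS match stands 2 bases before the ISRE match, and the first base of the ISRE match lies 34, 64 and 70 bases before the start site. Gbp2b and Gbp2 carry the same 10 letters at different distances, 137 and 59 bases before the start, and the Irf1 window holds a GAS match alone. All 5 GBP genes with a RefSeq window held the ISRE core, as did 5 of the 6 tested IRG genes with one; the window of Ifi47 held neither motif. Among the tested genes with a window, 3.77% held the ISRE core and 8.39% the GAS site, and among all RefSeq promoters 3.99% and 9.55%. Counted by gene, the ISRE core stood in a window of 6.21% of the genes called higher, of 2.98% of those called lower and of 3.40% of those not called.

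**Figure D2:**
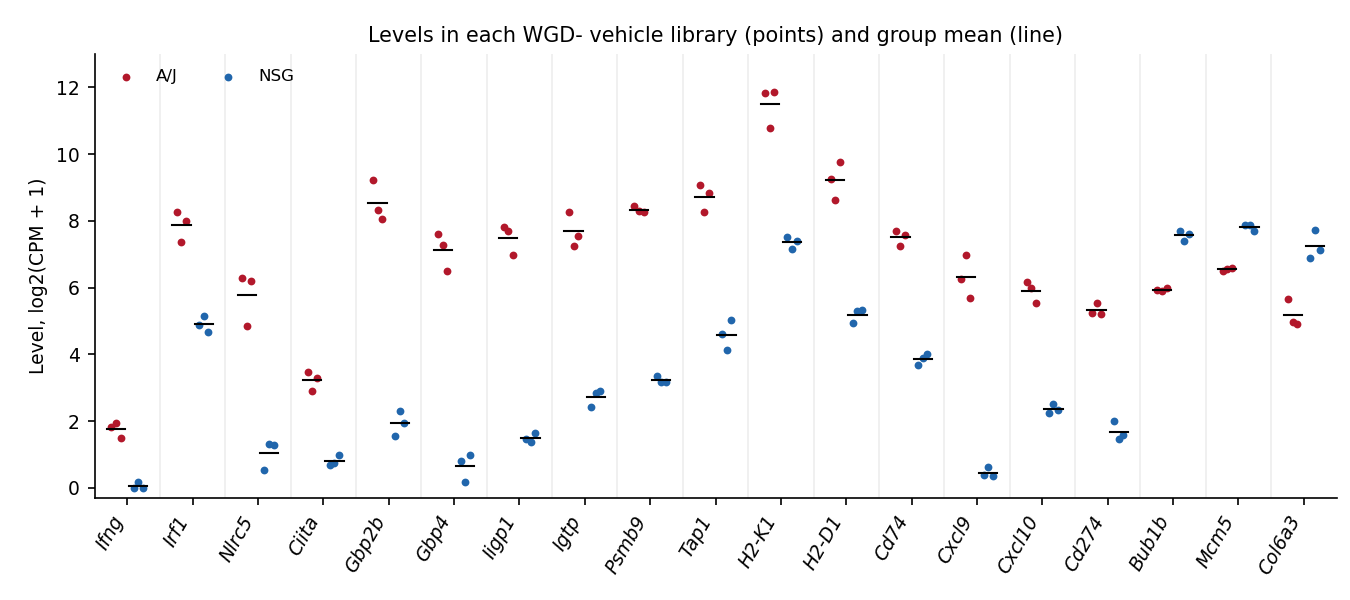
Levels (log2(CPM + 1)) of 19 genes in each of the 6 libraries, A/J in red to the left of NSG in blue, with a line at each group mean. The interferon, MHC, chemokine and Cd274 points of A/J all lie above those of NSG, and Bub1b, Mcm5 and Col6a3 lie below.

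Of the 15 genes of MHC class I presentation, 13 were higher and 0 lower, with a median of 2.74; Calr and Pdia3, chaperones of the endoplasmic reticulum, were not called (-0.14 and 0.34). Psmb9, a catalytic subunit of the immunoproteasome that cuts peptides for presentation, was at 8.44, 8.28 and 8.28 in A/J tumours, against 3.36, 3.16 and 3.17 in NSG tumours (5.10, SE 0.76, adjusted p = 0.000226); the libraries of each host lay close together. Tap1, a subunit of the transporter that carries peptides into the endoplasmic reticulum, was at 9.07, 8.26 and 8.85 in A/J tumours, against 4.60, 4.12 and 5.02 in NSG tumours (4.14, SE 0.65, adjusted p = 0.000313). H2-K1, a classical class I heavy chain (chromosome 17, 33996017 to 34000347, minus strand), was at 11.84, 10.77 and 11.86 in A/J tumours, against 7.51, 7.15 and 7.41 in NSG tumours (4.13, SE 0.59, adjusted p = 0.000176). The groups of all 3 genes were separate, which for Psmb9 was a condition of its naming by largest difference. H2-K1 was present in every NSG library. H2-D1 differed by 4.03 (adjusted p = 0.00019).

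Tap1 and Psmb9 are read away from each other from start sites with 225 bases between them, and the window of Tap1 is given because it holds the whole interval between the pair. Neither motif was found in it, which says only that these letters are not in this window.
Tap1 (chr17:34187306-34187605, plus strand): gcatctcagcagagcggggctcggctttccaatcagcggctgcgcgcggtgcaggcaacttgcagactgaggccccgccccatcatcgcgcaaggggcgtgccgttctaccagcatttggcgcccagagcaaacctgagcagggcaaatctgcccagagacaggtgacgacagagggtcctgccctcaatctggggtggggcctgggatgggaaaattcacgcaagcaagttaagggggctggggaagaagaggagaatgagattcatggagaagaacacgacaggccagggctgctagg

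Among nonclassical class I genes 8 of 11 tested were higher, with a median of 2.48, beside 16.2% of all genes. With the length trend removed, 7 were higher. Of the 15 members 4 had no reads in the 3 NSG libraries. Such genes, H2-M2 among them, could pass the filter only through other libraries of the experiment. H2-T10 was at 7.45, 7.22 and 7.33 in A/J tumours, against 4.51, 4.45 and 4.60 in NSG tumours (2.81, SE 0.35, adjusted p = 7.61e-05). H2-Q4 and H2-Q10 differed by 3.29 and 3.12. H2-M2 had no reads in NSG tumours and 168 in A/J tumours, at least 77.1-fold higher in A/J when set against a limit of 3 reads over the 3 NSG libraries together. A/J, NOD and the reference strain carry different alleles across the H2 region, class I genes share near-identical stretches, and reads were aligned to the reference, so values of single H2 genes are uncertain.

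MHC class II genes, which present peptides to helper T cells, were higher in 7 of 9 tested members, with a median of 2.70. That is beside 16.2% of all genes, and with the length trend removed 6 were higher. Cd74, the invariant chain, was at 7.69, 7.25 and 7.59 in A/J tumours, against 3.68, 3.91 and 4.02 in NSG tumours (3.64, SE 1.01, adjusted p = 0.0106). H2-DMb1, part of the peptide loader, was at 4.26, 4.07 and 4.11 in A/J tumours, against 0.20, 0.49 and 1.20 in NSG tumours (3.52, adjusted p = 0.000305). H2-Aa, a class II chain, differed by 3.54 (adjusted p = 0.00997), and the groups of these 3 genes did not overlap. H2-Ea-ps was at 5.57, 6.01 and 5.54 in A/J tumours, against 0.00, 0.00 and 0.36 in NSG tumours (5.58, SE 0.81, adjusted p = 0.000185), or 753 reads in A/J tumours against 2 in NSG tumours. As a ratio of pooled reads this is 518-fold, with an exact 95% counting interval of 143 to 4289. It is a pseudogene in the annotation because the reference strain lacks expression of the E alpha chain. A/J mice express that chain and NOD mice do not, while the tumour cells come from a strain A tumour in both hosts. In the 3 NSG libraries of WGD- tumours under YM-155, H2-Ea-ps was at 0.00, 0.00 and 0.36. Which cells or alleles gave its reads was not tested.

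Of 30 genes of the type I interferon response, 26 were higher and 0 lower, with a median of 2.09. Bst2, a membrane tether that holds back budding virus, was at 9.58, 8.64 and 9.40 in A/J tumours, against 5.40, 5.77 and 5.45 in NSG tumours (3.67, SE 0.65, adjusted p = 0.000668). Rtp4 and Ifi44 both differed by 3.55, and Oasl2, of the family that senses double-stranded RNA, by 3.39. Ifit2, Ifit3, Adar and Samd9l were not called (0.90, 1.67, 0.05 and 1.33). In the separate list of nucleic acid sensing 2 of 16 tested genes were higher, beside 16.2% of all genes. They were the DNA sensor gene Ifi204 (1.75, adjusted p = 0.00663) and the nuclease gene Trex1 (0.61, adjusted p = 0.0338). The RNA sensor genes Ifih1 and Ddx58 were counted in the type I list and were among its higher genes. Trex1 was not called without A/J library 2, or NSG library 1 or 3, and after the length trend was removed it differed by 0.22 (adjusted p = 0.474). Ifnb1, the gene of interferon-beta, did not pass the filter.

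**Figure D3:**
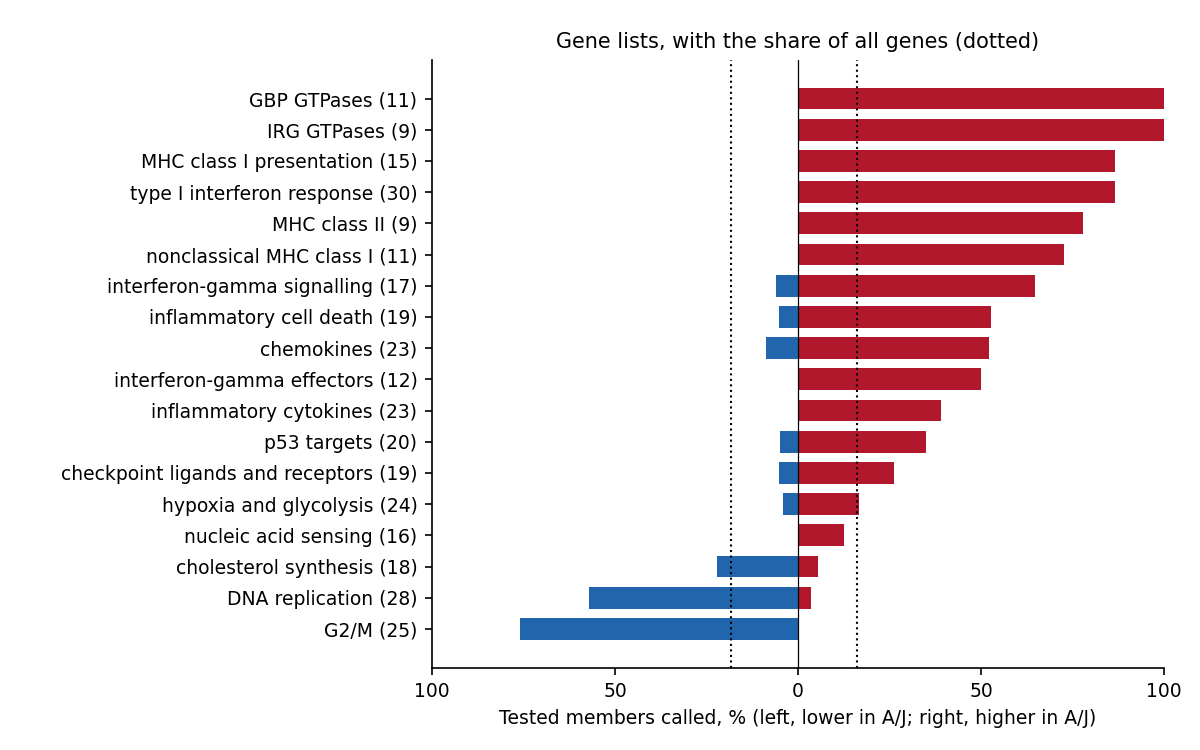
Share of the tested members of 18 gene lists called higher (red, right) or lower (blue, left) in A/J tumours, in percent, with the number tested in brackets and the shares of all genes as dotted lines (16.2% higher, 18.3% lower). The GBP and IRG bars reach 100% on the higher side, and G2/M and DNA replication lie mostly on the lower side.

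Effector genes, which carry out the interferon-gamma response, were higher in 6 of 12 tested members (median 0.96), beside 16.2% of all genes. Ubd, a ubiquitin-like modifier, was at 3.88, 5.32 and 3.59 in A/J tumours, against 0.00, 0.00 and 0.19 in NSG tumours (4.20, SE 0.65, adjusted p = 0.000232). Acod1, listed as IRG1, makes itaconate and was at 3.44, 5.88 and 4.17 in A/J tumours, against 1.13, 1.15 and 0.65 in NSG tumours (3.52, adjusted p = 0.000826). Ido1, which breaks down tryptophan, had 36 reads in A/J tumours and 0 in NSG tumours, at least 16.5-fold higher in A/J by the same limit (adjusted p = 0.000426). Without NSG reads it could pass the filter only through other libraries. The inducible nitric oxide synthase Nos2 differed by 1.51 and was not called. Genes of inflammatory cell death were higher in 10 of 19 (median 0.71), beside 16.2% of all genes. With the length trend removed, 8 of 18 were higher. Zbp1, a sensor of Z-form nucleic acid, led them at 6.82, 6.52 and 6.76 in A/J tumours, against 2.57, 2.85 and 2.37 in NSG tumours (4.11, SE 0.77, adjusted p = 0.000948). Casp12 and Casp4, inflammatory caspases, differed by 2.28 and 1.48, and the death ligand gene Tnfsf10 by 2.20. The gasdermin gene Gsdme, listed as DFNA5, was the member called lower (-0.71, adjusted p = 0.0402), and it was not called without A/J library 2 or 3, or NSG library 1 or 2 or 3.

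Chemokine genes were higher in 12 of 23 tested members and lower in 2 (median 1.29), beside 16.2% and 18.3% of all genes. With the length trend removed, 9 were higher and 2 lower (median 0.97). Cxcl9 and Cxcl10 draw T cells through Cxcr3. Cxcl9 (chromosome 5, 92321347 to 92328079, minus strand) was at 6.26, 6.97 and 5.70 in A/J tumours, against 0.38, 0.62 and 0.36 in NSG tumours (5.85, SE 1.14, adjusted p = 0.00115). Cxcl10 was at 6.17, 5.99 and 5.53 in A/J tumours, against 2.24, 2.51 and 2.33 in NSG tumours (3.54, adjusted p = 0.00164). Their receptor gene Cxcr3 did not pass the filter. Cxcl2, which draws neutrophils, was at 2.02, 6.15 and 2.85 in A/J tumours, against 0.68, 1.05 and 0.90 in NSG tumours (2.80, adjusted p = 0.00487), and A/J library 2 stood well above the others. Cxcl14 and Cxcl1 were lower in A/J tumours, Cxcl14 at 3.22, 4.37 and 1.71 in A/J tumours, against 4.89, 5.95 and 5.02 in NSG tumours (-2.19, adjusted p = 0.0248), and Cxcl1 by a difference of -1.27 (adjusted p = 0.0168). Cxcl14 was not called without A/J library 3, or NSG library 2, and Cxcl1 was not called without A/J library 1, or NSG library 3. Cxcr2, the receptor for Cxcl1 and Cxcl2, was lower as well (-1.38, adjusted p = 0.00383), and Cxcr5, a receptor of B cells and follicular T cells, was higher (1.54, adjusted p = 0.00119).

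Ligands that restrain T cells and macrophages were among the higher genes. Cd274, which encodes PD-L1 (chromosome 19, 29367455 to 29388095, plus strand), was at 5.25, 5.55 and 5.21 in A/J tumours, against 1.99, 1.46 and 1.59 in NSG tumours (3.66, SE 0.64, adjusted p = 0.000525). Cd47, the signal that restrains phagocytosis, was at 7.42, 7.55 and 7.32 in A/J tumours, against 6.23, 6.02 and 6.31 in NSG tumours (1.24, SE 0.19, adjusted p = 0.000176). Both genes had separate groups and held under all 18 alternative settings. Pdcd1lg2, which encodes PD-L2, had 37 reads in A/J tumours and 0 in NSG tumours, so it could pass the filter only through other libraries. Cd276 was lower (-0.91, adjusted p = 0.0197) and not called without A/J library 2, or NSG library 2. In all, 5 of 19 tested checkpoint genes were higher and 1 lower, beside 16.2% and 18.3% of all genes. With the length trend removed, 4 of 18 were higher and 1 lower. The lymphocyte receptor genes Pdcd1 and Ctla4 did not pass the filter, with 19 and 11 reads in A/J tumours and 1 and 0 in NSG tumours. Of 23 inflammatory cytokine and NF-kappa-B genes 9 were higher (median 0.58), beside 16.2% of all genes. With the length trend removed, 7 of these were higher and 1 lower. Il1rn, the interleukin 1 antagonist, was at 4.28, 6.20 and 4.52 in A/J tumours, against 0.80, 2.55 and 2.24 in NSG tumours (3.14, adjusted p = 0.000545), and Tnf differed by 1.49. Il1b differed by 1.59 (adjusted p = 0.0473) and was not called without A/J library 2, or NSG library 1 or 2 or 3; after the length trend was removed its adjusted p was 0.104.

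Of the genes mutated in the NSG host, Il2rg encodes the common gamma chain of several interleukin receptors. It was at 3.39, 3.09 and 3.64 in A/J tumours, against 1.94, 1.53 and 1.28 in NSG tumours (1.79, SE 0.33, adjusted p = 0.000544). Prkdc, the DNA repair kinase, averaged 3.33 ± 0.72 in A/J tumours and 3.96 ± 0.49 in NSG tumours (SD, n = 3 each), with overlapping libraries, and its difference of -0.63 was not called (adjusted p = 0.073). The mutations are those of the host, tumour cells of another strain add their own reads, and reads were counted per gene, so these levels are no check of the mutations. Other genes of the common gamma receptors moved in part: Il2rb, Il15 and Il7r were higher (1.59, 1.59 and 1.37), Il7r was not called without A/J library 2, or NSG library 1, and the kinase gene Jak3, which binds the common chain, differed by 0.05 and was not called. Stat5a and Stat5b were lower (-0.56 and -0.50); Stat5a was not called without A/J library 2, or NSG library 1, Stat5b was not called without A/J library 3, or NSG library 1, and Stat5b lost its call after the length trend was removed (adjusted p = 0.125). Among the mouse counterparts of the receptors for the 3 human transgene products, Csf2ra, Csf2rb, Csf2rb2 and Kit were not called (0.92, -0.18, -0.69 and -0.37). Il3ra was higher by 1.03. Whether the human proteins act on these mouse receptors was not tested.

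Transcripts of the Cd3 genes were not detected in NSG tumours and were rare in A/J tumours. Cd3d, Cd3e and Cd3g, chains of the T cell receptor complex, had 13, 18 and 21 reads over the 3 A/J libraries and 0 each over the 3 NSG libraries, where 0 reads allow up to 0.142 CPM. Cd8a was at 1.82, 2.20 and 1.33 in A/J tumours, against 0.00, 0.00 and 0.19 in NSG tumours (1.72, adjusted p = 0.000501). Cytotoxic genes were higher in 10 of 11 tested members, with a median of 1.55, beside 16.2% of all genes. Of the 17 members 9 had no reads in the 3 NSG libraries. Such genes could pass the filter only through other libraries of the experiment, so the filter itself favours a high count. The summed level of the whole list was 80.3, 61.3 and 94.2 CPM in A/J tumours, against 26.3, 23.7 and 22.2 CPM in NSG tumours. Gzmb, the granzyme that starts apoptosis in target cells, had 82 reads in A/J tumours and 0 in NSG tumours, at least 37.6-fold higher in A/J (adjusted p = 0.00137). Gzmf was at 2.89, 2.67 and 3.98 in A/J tumours, against 0.00, 0.00 and 0.00 in NSG tumours (3.18, adjusted p = 0.00166), and Gzmc differed by 3.16. The NK receptor gene Ncr1 did not pass the filter, with levels of 0.59, 1.05 and 0.00 in A/J tumours and 0 in each of the NSG tumours.

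The summed T cell list was 86.9, 81.4 and 94.6 CPM in A/J tumours and 98.4, 104 and 92.9 CPM in NSG tumours, which overlap. Some other members were present in every library of both hosts. Foxp3 was at 4.69, 4.19 and 4.69 in A/J tumours, against 3.78, 3.79 and 3.78 in NSG tumours (0.74, adjusted p = 0.0308), and was not called without A/J library 1 or 3, or NSG library 1 or 2 or 3. Tcf7 was at 4.47, 4.27 and 4.42 in A/J tumours, against 5.54, 5.81 and 5.59 in NSG tumours. Tcf7 and Cd247 were lower (-1.26 and -1.26, adjusted p = 0.00251 and 0.00711). Which cells these transcripts come from was not tested.

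**Figure D4:**
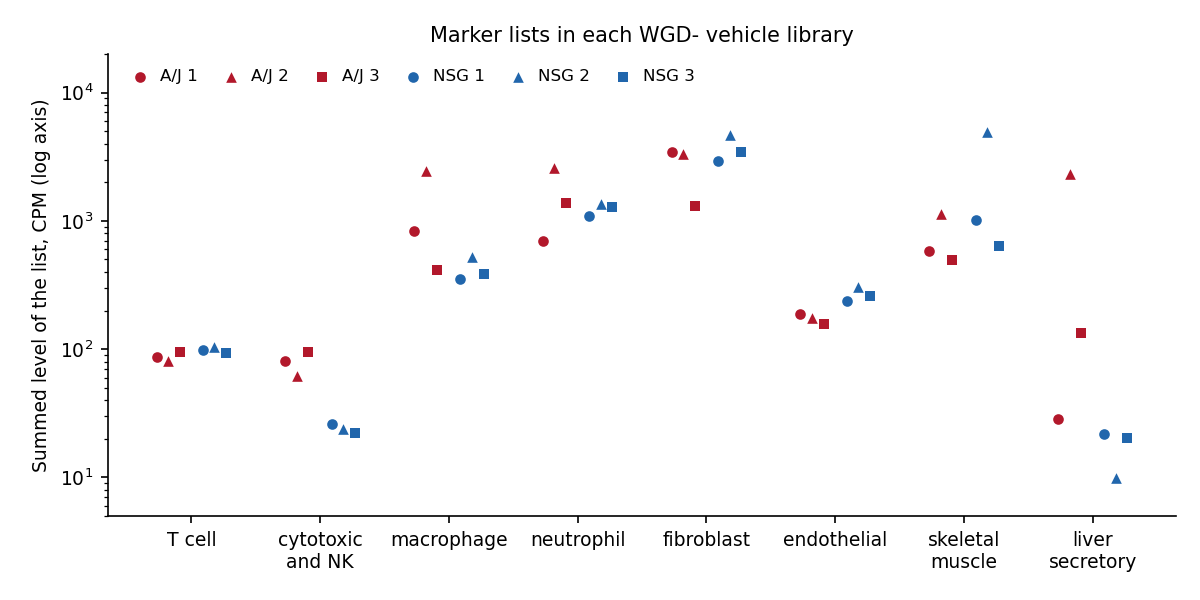
Summed level (CPM, log axis) of 8 marker lists in each library, A/J in red to the left of NSG in blue, with a circle, triangle or square for library 1, 2 or 3. Cytotoxic and NK markers separate the hosts, the T cell sums overlap, A/J library 2 is high in macrophage, neutrophil and liver genes, and NSG library 2 is high in skeletal muscle genes.

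The macrophage list summed to 839, 2445 and 413 CPM in A/J tumours and 351, 518 and 384 CPM in NSG tumours, with 2 of 15 members higher, beside 16.2% of all genes. Arg1, an arginase made by some macrophages, was at 8.40, 10.03 and 3.33 in A/J tumours, against 3.44, 4.18 and 4.08 in NSG tumours (3.35, adjusted p = 0.015); A/J library 3 lay below every NSG library, without A/J libraries 1 and 2 together the difference was -0.57, and the gene was not called without A/J library 1 or 2, or NSG library 1. Adgre1, Csf1r, Cd68 and Mrc1 were not called (-0.16, -0.67, 0.26 and -0.54). The neutrophil list summed to 691, 2587 and 1383 CPM in A/J tumours and 1093, 1344 and 1282 CPM in NSG tumours, with 1 of 8 members higher, Ltf (1.85, adjusted p = 0.0037). Of 10 mast cell, basophil and eosinophil genes 3 were higher, beside the same 16.2%, and 2 were higher with the length trend removed. Among the 3 was Il1rl1, the receptor of interleukin 33, at 5.54, 4.74 and 1.57 in A/J tumours, against 1.23, 2.25 and 1.66 in NSG tumours. A/J library 3 lay within the range of the NSG libraries, and without A/J libraries 1 and 2 together the difference was -0.15.

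Transcripts typical of liver and of skeletal muscle were unequal between libraries. Alb, the serum albumin of liver, was at 3.48, 10.04 and 6.01 in A/J tumours and had 0 reads in NSG tumours. Of 13 tested liver genes 10 were called higher, beside 16.2% of all genes. Of the 16 members 11 had no reads in the 3 NSG libraries and could pass the filter only through other libraries. The liver list summed to 28.6, 2313 and 133 CPM in A/J tumours and 21.6, 9.83 and 20.2 CPM in NSG tumours, highest in A/J library 2. The skeletal muscle list summed to 585, 1132 and 492 CPM in A/J tumours and 1012, 4957 and 637 CPM in NSG tumours, which overlap, with NSG library 2 the highest; 3 of 16 were lower, beside 18.3% of all genes, among them Mylpf (-1.54, not called without A/J library 1 or 2 or 3, or NSG library 2). Without both libraries numbered 2, 2955 genes were called between hosts. What part these tissues have in other differences was not tested.

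Many proliferation genes were lower in A/J tumours. Of 25 G2/M genes 19 were lower and 0 higher, with a median of -0.73, beside 18.3% of all genes lower. Bub1b, a kinase of the spindle checkpoint, was at 5.93, 5.90 and 5.99 in A/J tumours, against 7.70, 7.41 and 7.60 in NSG tumours (-1.63, SE 0.19, adjusted p = 4.75e-05), the smallest adjusted p of any gene tested. Kif11, a spindle motor, was at 5.42, 5.23 and 5.24 in A/J tumours, against 6.90, 6.55 and 6.64 in NSG tumours (-1.40, SE 0.20, adjusted p = 0.000134). Aurkb and Ccnb1 differed by -1.39 and -1.28. The 3 libraries of either host lay close together in all 4 genes, and the groups did not overlap. Cdk1, Cenpe, Cenpf, Cenpa, Birc5 and Ndc80 were not called, with differences between -0.40 and 0.16.

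Genes of DNA replication were lower in 16 of 28 and higher in 1 (median -0.58). Pole, the leading-strand polymerase, was at 4.31, 3.87 and 4.50 in A/J tumours, against 5.88, 5.65 and 5.74 in NSG tumours (-1.53, SE 0.19, adjusted p = 5.21e-05). Mcm5, a subunit of the replicative helicase, was at 6.51, 6.57 and 6.60 in A/J tumours, against 7.88, 7.87 and 7.70 in NSG tumours (-1.26, SE 0.17, adjusted p = 8.41e-05). E2f1, a transcription factor of the same genes, was the member called higher (0.75, adjusted p = 0.0157), at 6.99, 8.16 and 6.94 in A/J tumours, against 6.57, 6.59 and 6.69 in NSG tumours, and it was not called without A/J library 2. Of 20 p53 targets 7 were higher and 1 lower, beside 16.2% and 18.3% of all genes. Cdkn1a, the inhibitor of cyclin-dependent kinases, was at 8.34, 7.80 and 8.64 in A/J tumours, against 7.16, 7.22 and 7.23 in NSG tumours (1.06, SE 0.21, adjusted p = 0.001). Bax, which opens mitochondria in apoptosis, was at 8.70, 8.30 and 8.80 in A/J tumours, against 7.56, 7.46 and 7.54 in NSG tumours (1.08, SE 0.21, adjusted p = 0.000683). Trp53 itself was lower (-0.52, adjusted p = 0.0183) and not called without A/J library 2, or NSG library 2.

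The fibroblast, endothelial and pericyte lists had members called lower and none higher, beside 18.3% of all genes lower. The median transcript of the fibroblast list is 5068 bases long. Of all tested genes with transcripts of 4382 to 5171 bases, 26.9% were called lower. With the length trend removed, 5 fibroblast, 3 endothelial and 2 pericyte markers were lower, and 1 pericyte marker was higher. Col6a3, a chain of type VI collagen, was at 5.67, 4.96 and 4.90 in A/J tumours, against 6.89, 7.72 and 7.14 in NSG tumours (-2.08, SE 0.31, adjusted p = 0.000176). Of the 18 fibroblast markers 5 were lower and 0 higher (median -1.01), while the list summed to 3434, 3343 and 1295 CPM in A/J tumours and 2913, 4632 and 3417 CPM in NSG tumours, which overlap. Cdh5, the cadherin of endothelium, was at 3.86, 4.16 and 3.49 in A/J tumours, against 4.79, 5.14 and 5.04 in NSG tumours (-1.15, SE 0.25, adjusted p = 0.00182), and 5 of 14 endothelial markers were lower. Their sum was 188, 174 and 156 CPM in A/J tumours and 236, 308 and 259 CPM in NSG tumours, with the highest A/J library under the lowest NSG library. Pdgfrb and Notch3 of pericytes differed by -1.70 and -1.25. Outside these lists, Col4a2, a chain of type IV collagen, was at 6.11, 5.41 and 6.19 in A/J tumours, against 7.91, 8.59 and 7.80 in NSG tumours (-2.19, SE 0.33, adjusted p = 0.00019), Nid2 differed by -2.10 (adjusted p = 5.21e-05) and Col15a1 by -2.28 (adjusted p = 0.000918).

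The lowest of the 13826 genes by difference was Pcdhgc3, a protocadherin, at 4.59, 3.97 and 4.61 in A/J tumours, against 7.26, 7.06 and 6.84 in NSG tumours (-2.66, SE 0.52, adjusted p = 0.00119). Rcor1, a corepressor of neuronal genes, was at 3.37, 2.83 and 3.45 in A/J tumours, against 5.69, 5.34 and 5.56 in NSG tumours (-2.31, SE 0.45, adjusted p = 0.00108). Slc44a1, a choline transporter, was at 2.86, 3.37 and 2.21 in A/J tumours, against 5.09, 4.96 and 5.02 in NSG tumours (-2.21, SE 0.33, adjusted p = 0.000164). Separate groups and calls under all 18 alternative settings were among the rules by which these 3 genes were named, so neither is a separate result. Cytl1, Fbln5 and Hhipl1 differed by -2.45, -2.39 and -2.34; Cytl1 was not called without A/J library 3, and Fbln5 was not called without NSG library 1 or 2.

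Of 24 tested epithelial genes 5 were higher and 1 lower, beside 16.2% higher and 18.3% lower over all genes. Cldn4, a tight junction protein, was at 5.66, 4.64 and 6.50 in A/J tumours, against 3.38, 3.47 and 3.93 in NSG tumours (2.01, adjusted p = 0.0116, not called without A/J library 3), and Krt18 was higher by 1.01 (adjusted p = 0.0021). Epcam was at 8.56, 7.24 and 8.32 in A/J tumours, against 7.51, 7.23 and 7.48 in NSG tumours, and was not called (adjusted p = 0.052). Matrix proteases split, with Mmp12, Mmp13 and Plau higher (2.75, 1.98 and 1.02; Mmp13 was not called without A/J library 1 or 3, or NSG library 1 or 2 or 3, and Plau was not called without A/J library 1 or 3, or NSG library 1) and Adamts1, Adamts4 and Mmp11 lower (-1.28, -1.23 and -1.15). Hypoxia and glycolysis genes were higher in 4 of 24 and lower in 1, beside 16.2% of all genes higher, and 2 were higher after the length trend was removed. Of 17 genes of endoplasmic reticulum stress 3 were lower, beside 18.3% of all genes, among them the chaperone gene Hspa5 (-0.59, adjusted p = 0.00306). Cholesterol synthesis genes were lower in 4 of 18, beside the same 18.3%, and higher in 1. Of 18 complement genes 2 were higher, Cd59a and C1s1, beside 16.2% of all genes.

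The relation to transcript length covered the whole table. For the 13417 tested genes with a GENCODE M21 transcript, 97% of those tested, the median difference was 0.42 in the shortest of 10 equal bins (median length 980 bases) and -0.31 in the longest (median 8129 bases). In the shortest bin 35.7% of the genes were called higher and 4.84% lower, and in the longest 8.72% and 32.7%. Each of the A/J libraries showed it, with medians over the NSG mean of 0.27, 0.56 and 0.45 in the shortest bin. The rank correlation between length and difference across genes was -0.31 here, -0.40 between hosts under YM-155 and -0.39 between hosts in WGD+ vehicle tumours. Genes are not independent replicates, and these are descriptions. With a smooth curve over length subtracted from every library, an alternative chosen after the data were seen, 4102 genes were called, 2070 higher and 2032 lower, of which 3484 were also called the same way without it. All 11 GBP genes, 9 IRG genes and 13 MHC class I genes stayed higher, with medians of 4.13, 3.74 and 2.62, and 19 G2/M genes stayed lower, with a median of -0.66. Endothelial genes went to 3 lower of 14. Of 5 long noncoding RNAs, named after their values were seen, 2 were higher. Malat1, which is kept in the nucleus, was at 11.12, 13.39 and 11.18 in A/J tumours, against 7.94, 7.54 and 8.68 in NSG tumours (3.84, SE 0.67, adjusted p = 0.000606). Kcnq1ot1 was at 5.31, 6.78 and 6.00 in A/J tumours, against 3.03, 2.29 and 3.17 in NSG tumours (3.20, SE 0.66, adjusted p = 0.00164). Neat1, Xist and Meg3 were not called (-0.46, -0.47 and 1.22). RNA integrity is not given in the sources used here, and its part in these differences was not tested.

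**Figure D5:**
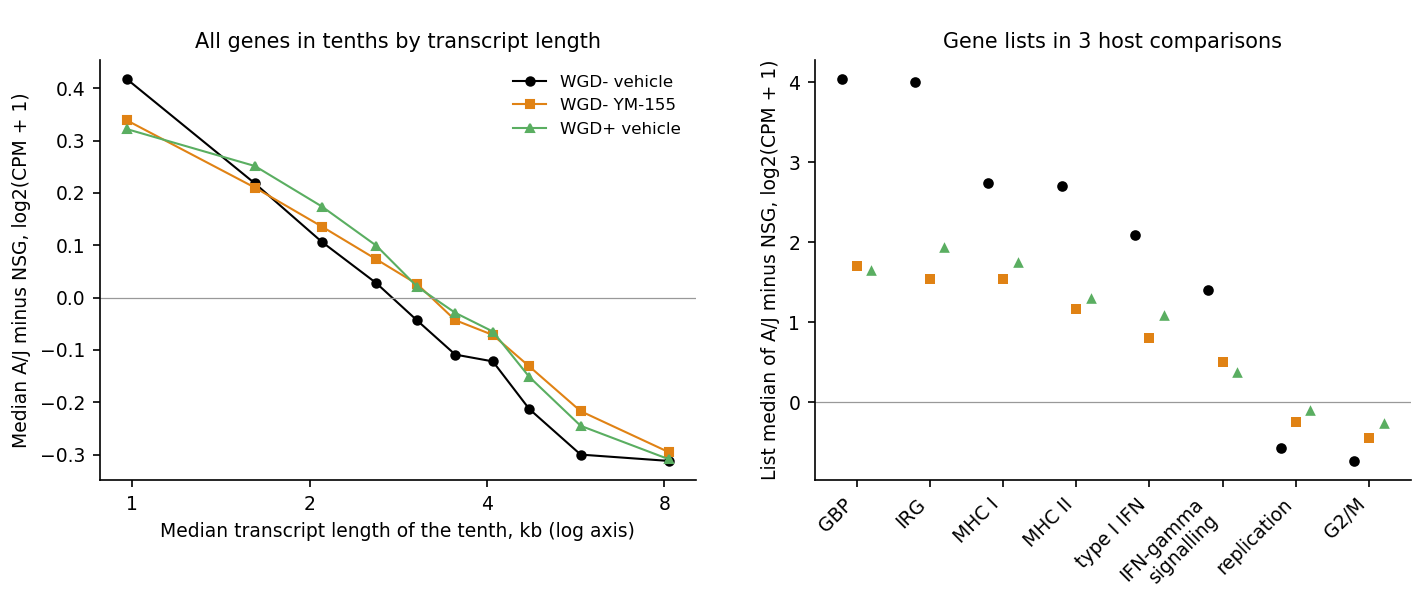
Left, median difference (A/J minus NSG, log2(CPM + 1)) of the tested genes in 10 equal bins by transcript length, for 3 host comparisons; right, median difference of 8 gene lists in the same comparisons. In WGD- vehicle tumours (black) the bins run from 0.42 down to -0.31, and the GBP list stands at 4.04, beside 1.71 under YM-155 (orange) and 1.66 in WGD+ tumours (green).

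The hosts could also be compared in libraries apart from these 6. In WGD- tumours given YM-155, 1041 genes (7.53%) were called between 3 A/J and 3 NSG libraries, 659 higher (4.77%) and 382 lower (2.76%) in A/J. Of the 2244 genes higher in vehicle tumours, 93.7% had the same sign under YM-155 and 22.5% were called there, which is 76.6% of the genes higher under YM-155. No same-sign share over all genes is given beside the 93.7%, and the length trend ran the same way in both comparisons. The GBP and IRG genes had medians of 1.71 and 1.54 there with 0 called. The A/J libraries themselves were unequal: under YM-155 Gbp2b was at 3.68, 8.28 and 4.19 in A/J tumours, against 2.70, 2.36 and 2.92 in NSG tumours, and Psmb9 was at 4.34, 7.80 and 4.88 in A/J tumours, against 3.27, 3.42 and 3.22 in NSG tumours. In both genes A/J library 2 was high and the other A/J libraries lay nearer to the NSG libraries. Without A/J YM-155 library 1, 75 genes were called, without library 2 310, and without NSG YM-155 library 1, 2 or 3 it was 188, 102 and 518. Under quantile normalization 51.8% of the calls were higher, beside 63.3%. H2-K1 was called (1.99, adjusted p = 0.0463), as were Bax (0.81, adjusted p = 0.0241), Cdkn1a (0.79, adjusted p = 0.0299) and Bub1b (-0.77, adjusted p = 0.0213).

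In WGD+ vehicle tumours 1731 genes (12.5%) were called, 996 higher (7.2%) and 735 lower (5.32%) in A/J. Of the genes higher in WGD- tumours 90.8% had the same sign, again with no share over all genes beside it. MHC class I presentation was higher there in 12 of 15 genes, with a median of 1.75, and GBP genes in 2 of 11, with a median of 1.66. In WGD- tumours these medians were 2.74 and 4.04. Gbp2b was at 8.21, 3.78 and 6.13 in A/J WGD+ tumours, against 2.97, 2.22 and 2.37 in NSG WGD+ tumours. The difference of the host effect itself was tested for every gene. Between the forms limma called 0 genes, with 1787 at an unadjusted p under 0.05 (12.9%). Among them were 9 of the 11 GBP genes, 14 of the 16 muscle genes and 13 of the 25 G2/M genes. The other interferon and MHC lists were uneven. The counts were 1 of 9 for IRG, 2 of 17 for interferon-gamma signalling and 2 of 30 for type I genes. They were 2 of 15 for MHC class I presentation and 0 of 9 for MHC class II. For nonclassical class I and interferon-gamma effectors they were 4 of 11 and 3 of 12. Between vehicle and YM-155 it called 0 genes, with 1425 at an unadjusted p under 0.05 (10.3%). Voom on recovered reads also called 0 for both. Without A/J WGD- vehicle library 3, 135 genes were called between the forms and 8 between treatments, and with a weight per library 1223 and 9.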

How the data were processed

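Libraries were made from 500 ng of total RNA with a TruSeq Stranded mRNA kit, per the labels' protocols, and STAR 2.5.1b, edgeR and the mm10 build are named in the submitters' processing notes. The deposited table holds log2(CPM + 1) values that the authors scaled with TMM factors, as the name of the table says. Read counts recovered from the steps of these log2 values were whole within 0.1 read for 100% of the values tested below 200 reads in each library. For the counting step, neither annotation nor strand setting is given in the sources used here.

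Of 24360 rows, 27 whose symbols had turned into dates were left out, and 96.3% of the remaining 24333 matched GENCODE M21. Genes above 1 CPM in at least 3 of 24 libraries were fitted in R 4.3.3 with limma 3.58.1 (means of 8 groups, trended and robust variance, Benjamini-Hochberg adjustment), which was tested on simulated data. Groups were taken from the library titles; a genotype field disagrees with the title in 12 libraries, 0 of the 6 compared. The numbers of the libraries mark no shared animal or batch in the labels.

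The comparison, gene lists and tests were chosen with earlier results of these data known. Genes were named as follows: Il2rg and Prkdc; up to 10 each way with the largest difference among called genes without overlap between hosts and a mean of at least 3 in the higher group; up to 8 each way called under every alternative, by their smallest difference; in each list up to 4 called members each way (in a list with no call, up to 2 members by smallest p); up to 4 each way for each difference between effects; and the genes that define a marker list. Other genes named were chosen after their values were seen. Alternatives changed the filter, the scale, the normalization, the test, the libraries and the block, and a length correction was chosen after seeing the data. A few genes of these lists are not reported here by name.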

Additional observations from a re-analysis of the deposited data

How the results depend on the processing

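Beside the 4768 genes called between hosts in WGD- vehicle tumours, 2976 were called with only the 6 libraries compared, 2310 without A/J libraries 1 and 2 together and 2955 without both libraries numbered 2. Leaving out 1 of the 6 libraries gave 3365 to 4661. Of 156 named genes called, 104 were called in every fit that left out 1 library and 63 under all 18 settings. Without A/J libraries 1 and 2 together the sign turned for Gch1 (-0.069), Arg1 (-0.57) and Il1rl1 (-0.15). The labels do not pair the libraries by number. Deviations of same-numbered libraries correlated weakly, by 0.024, 0.181 and 0.181, beside -0.225 to 0.111 for different numbers. For 5 of the 6 libraries the best match bore the same number, and whether they share a batch was not tested. A fit with the replicate block called 4905 genes over all libraries and 2976 over the libraries compared.

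Beside the 1041 genes called between hosts under YM-155, 650 were called with no filter, 2305 with library weights and 384 with the length correction, and leaving out 1 library gave 75 to 986. Beside the 0 genes whose host effect differed between forms, 2 were called with only the libraries compared, 1223 with library weights and 0 to 135 on leaving out 1 library. Beside the 0 that differed between treatments, 9 were called with library weights and 0 to 8 on leaving out 1 library. The cause of these changes was not tested. Counts under the alternatives are not reported here for the WGD+ host comparison. At 3.23 M reads, 1 read in A/J library 2 stands for 0.358 CPM, which limits what can be said of lymphocyte transcripts.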
